A study of Mus musculus with 4 samples.

Results

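Amino acids, and the transmitters made from them, cross cell membranes through families of solute carriers. The genes described here are those whose symbol begins with Slc1a, Slc3a, Slc6a, Slc7a, Slc36a, Slc38a or Slc43a. These families were picked with earlier results of these data known, and within them genes were taken by symbol alone, from probe sets that the platform annotation pairs with 1 gene symbol. That gave 125 probe sets for 63 genes, out of 34945 such probe sets for 18193 genes. Of the 63 genes, 3 (Slc7a6os, Slc36a1os and Slc6a19os) are named for the strand opposite a carrier and are not carriers themselves. They meet the rule, so they were kept and are described apart. RNA came from mouse J1 embryonic stem cells of 1 inducible RNAi line, called Chd4i-1, kept on gelatin in serum medium with leukaemia inhibitory factor. The treated group (2 arrays) had 5 ng/ml doxycycline for 3 days, which switches on RNAi against the chromatin remodeller gene Chd4. The control group (2 arrays) was the same line without doxycycline, so doxycycline, the induced RNAi and loss of Chd4 cannot be told apart. Both arrays in each group are biological duplicates according to the series text. The comparison asks which of these transcripts differ in stem cells with less Chd4.

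As background, carriers of the Slc1 family move glutamate or exchange small neutral amino acids with sodium. Slc3 genes encode heavy chains, single-pass glycoproteins that bring Slc7 light chains to the cell surface, and other Slc7 proteins carry arginine and lysine alone. Slc6 carriers take up transmitters such as GABA and monoamines, but also taurine, creatine, glycine and larger amino acids. Some Slc36 carriers are driven by protons. Slc38 carriers take up glutamine and other neutral amino acids with sodium, and some Slc43 carriers let branched-chain amino acids pass without it. When amino acids run short, the transcription factor Atf4 switches on many of these genes through a composite element in their regulatory DNA. Amino acids that enter also report, through lysosomal sensors, to the growth kinase complex mTORC1.

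Promoter sequence was looked at because several carriers are known Atf4 targets. The letters searched were TGATGNAA, the core of the amino acid response element, on both strands and with overlapping matches allowed. Of the 63 genes, 46 matched a RefSeq promoter entry (build GRCm38.p6) by gene ID, with 67 windows of 300 bases from 250 before to 50 after a gene's start. The letters occurred in 5 of 67 windows (7.46%), those of Slc1a4, Slc7a11, Slc6a21 and Slc7a7, the last with 2 overlapping windows. They occurred in 3.97% of all 32851 promoter windows and in 2.20% of those of the genes tested below. The 67 windows include 25 of members too dim to be tested, so the last share is not a like one. By gene, the letters occurred in 1 of 10 members that passed the test below and 1 of 17 that did not. Over all genes tested it was 270 of 10186. A match is a run of letters and not a shown binding site. The stretches that hold matches in 3 members are given here with TGATGNAA or its reverse complement in capitals. A further Slc7a7 match, TGATGCAA at chr14:54417938-54417945, is in both of its overlapping windows but outside the stretch given. The Slc1a4 stretch (chr11:20332710-20332803, minus strand) runs to the fourth transcribed base, that of Slc7a11 (chr3:50443614-50443723, minus strand) to the base before the start, and that of Slc7a7 (chr14:54417965-54418104, minus strand) to 21 bases before it.
Slc1a4: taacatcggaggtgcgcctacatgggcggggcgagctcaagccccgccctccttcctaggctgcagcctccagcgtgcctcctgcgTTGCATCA
Slc7a11: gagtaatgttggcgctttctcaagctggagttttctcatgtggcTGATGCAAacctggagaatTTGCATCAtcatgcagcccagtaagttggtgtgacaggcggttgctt
Slc7a7: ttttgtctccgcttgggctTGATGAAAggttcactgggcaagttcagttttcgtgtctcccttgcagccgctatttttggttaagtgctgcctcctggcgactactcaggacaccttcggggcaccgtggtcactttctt

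Of these genes Slc1a4 was higher in knockdown cells, Slc7a7 did not pass the test, and Slc7a11 and Slc6a21 were too dim to be tested. The other 9 genes that passed held no match in their windows. Sequence outside the windows, introns included, was not searched, so a match there is not excluded. The promoters of a bright and a dim gene that rose, Slc38a2 and Slc6a13, are shown to compare their CpG content, with CpG dinucleotides in capitals. The Slc38a2 stretch (chr15:96699731-96699848, minus strand) holds 15 CpG and that of Slc6a13 (chr6:121300168-121300287, plus strand) holds 5. They were picked after their values were seen.
Slc38a2: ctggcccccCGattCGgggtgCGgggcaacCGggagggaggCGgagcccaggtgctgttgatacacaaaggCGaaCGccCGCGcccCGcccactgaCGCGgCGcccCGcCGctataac
Slc6a13: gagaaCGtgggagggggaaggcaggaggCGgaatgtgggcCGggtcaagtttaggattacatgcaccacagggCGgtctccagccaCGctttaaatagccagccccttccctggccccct

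Across whole windows the ratio of observed to expected CpG was 1.03 for Slc38a2 and 0.113 to 0.429 for the 3 windows of Slc6a13. Its median was 0.712 over the 14 windows of the 10 genes that passed, 0.424 over the 28 windows of members tested that did not pass and 0.412 over the 25 of members too dim to test. Over all genes tested it was 0.742.

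All 3 Chd4 probe sets were lower on both knockdown arrays, with 48.5%, 56.1% and 65.0% of the control signal (limma, adjusted p = 0.000244, 0.00232 and 0.00638). The median signal per array lay between 73.4 and 79.4. Markers of embryonic stem cells were bright in both groups, with summed signals of 116054 and 118947 in controls and 118443 and 115799 in knockdown. Of 9 tested among 10, Dppa5a and Utf1 were higher and Esrrb and Klf4 lower. Counts in the marker lists are to be read beside the 11.7% of all tested genes that were higher and the 8.81% that were lower. The trophectoderm list summed to 2841 and 2881 in controls and 5370 and 5649 in knockdown, with Tfap2c and Krt18 higher among 6 tested of 10, and Cdx2, Elf5, Gata3 and Tpbpa under the filter. Its 8 other genes summed to 1053 and 1228 against 1228 and 1206. The fibroblast list summed to 522 and 587 against 915 and 821, with Thy1 higher among 3 tested of 9 and the collagen genes Col1a1 and Col3a1 under the filter. Its 8 genes other than Thy1 summed to less in knockdown, 346 and 388 against 315 and 274. Neural and neuronal markers summed to 14102 and 14584 against 12857 and 13016, with 2 of 8 tested higher and 2 lower. Most of each sum was Stmn2 (11079 and 11522 against 9718 and 9896), so the sums do not give the direction of the other genes. Stmn2 and Neurod1 (445 and 558 against 147 and 173) were lower. Tubb3 and Syt1 were higher, Syt1 from dim controls (27.5 and 49.9 against 135 and 111). Sox1, under the filter and not tested, had a mean of 156 in controls and 13.3 in knockdown. Primitive endoderm markers summed to 1111 and 1117 against 960.9 and 963.4, with 0 of 8 tested higher and 1 lower in limma (1 and 2 at an unadjusted p under 0.05). The brightest of them, Lama1 (381 and 376 against 280 and 241) and Col4a1 (238 and 290 against 157 and 223), had less signal in knockdown. Among the 8 tested, 3 had differences above 0 and 5 below. The part of such cells in any difference below was not tested. In bulk RNA, fewer cells with a transcript and less transcript per cell cannot be told apart.

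Amino acid carriers changed in both directions when Chd4 was reduced. A gene was represented by its brightest probe set, and 41 of the 63 genes were bright enough to be tested (mean signal of 42.4 or more). Of these, 6 were higher and 4 lower at an adjusted p under 0.05 (limma over all 12615 genes tested). The share that passed, 24.4%, was near the 20.5% of all genes tested that passed. By direction it was 14.6% higher and 9.76% lower among members, against 11.7% and 8.81% of all genes. The rises were Slc38a2, Slc3a2, Slc7a6, Slc1a4, Slc36a4 and Slc6a13, and the falls Slc43a1, Slc1a3, Slc7a1 and Slc7a6os. The groups of each of these 10 genes did not overlap. Groups that are apart are bound up with passing the test, so this is no separate support. The median log2 difference, knockdown minus control, was -0.038 over the 41 genes and 0.014 over all genes tested, and the median size of a difference was 0.36 and 0.21. Leaving out Slc6a13, which was tested only through its knockdown signals, 5 of 40 members were higher (12.5%). The differences of those 40 ran from -1.01 (Slc43a1) to 1.37 (Slc36a4). Without the 3 opposite-strand genes, 6 of 40 carriers were higher and 3 lower. These calls rest on a variance model with an intensity trend. Without it 0 of the 10 passed (limma adjusted p from 0.0521 to 0.181), the counts were 0 higher and 1 lower (8 and 8 at an unadjusted p under 0.05), and the 1 lower gene was Slc36a2. Without control replicate 2, 3 members were higher. There were 2 lower without control replicate 1, without knockdown replicate 2 or with the probe sets of a gene averaged.

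**Figure D1:**
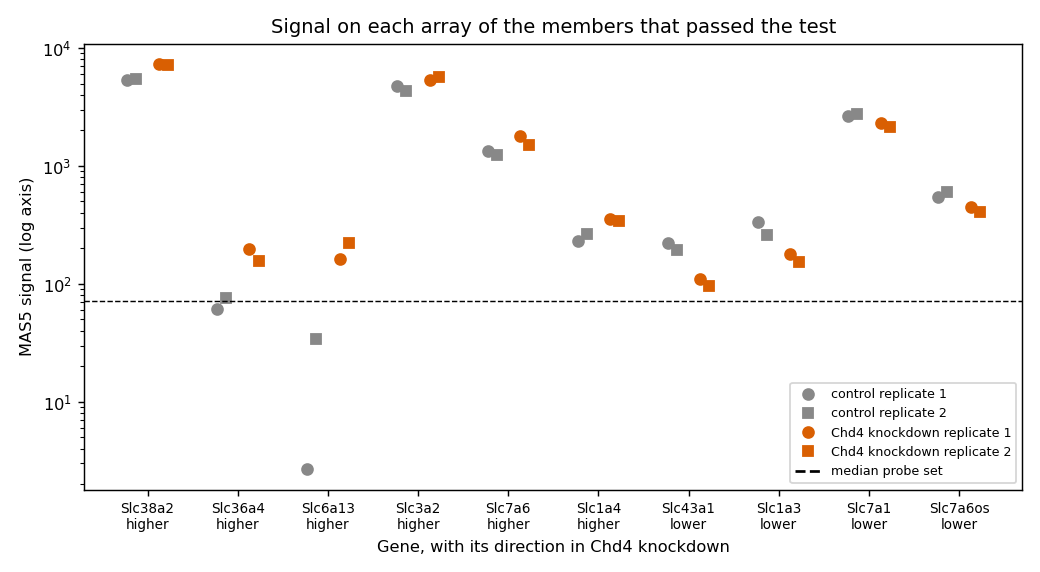
MAS5 signal on each array (log axis) of the 10 members that passed the test, controls in grey and Chd4 knockdown in orange, with the median probe set signal of 71.8 as a dashed line. The knockdown points of Slc36a4 and Slc6a13 lie above the line while their controls lie near or under it, and the groups of every gene shown are apart.

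The median signal of all probe sets, 71.8, served as a mark of brightness, and 33 of the 63 genes had a mean signal above it. The 8 tested genes under it were Slc6a13, Slc1a1, Slc36a2, Slc38a5, Slc7a2, Slc6a19, Slc7a10 and Slc7a9. The nearest genes on either side were Slc1a7 at 73.1 and Slc36a2 at 71.7. At the filter of 42.4 the nearest were Slc6a13 at 42.7 inside and Slc1a2 at 34.0 outside. Where a group lay under 71.8, lower signals were raised to it and the fold is given as "at least".

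Among the heavy and light chains, the heavy chain gene Slc3a2 (CD98, partner of most Slc7 light chains) was higher in knockdown cells. Its signals were 4746 and 4308 in controls and 5325 and 5732 in knockdown. Both knockdown arrays were above both controls, a 1.22-fold rise (log2 0.29 ± 0.066 SE, adjusted p = 0.0100). With control replicate 2 left out the call was lost (log2 0.22, adjusted p = 0.0721). Over 11 alternatives its adjusted p ranged from 0.00535 to 0.178. Slc3a1, the heavy chain of the kidney and gut cystine carrier, was near background on all 4 arrays (2.86 to 6.72).

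Slc7a6, which exchanges cationic for neutral amino acids, was the light chain gene that passed. Its signals were 1332 and 1248 in controls and 1801 and 1515 in knockdown, a 1.28-fold rise (log2 0.36 ± 0.095 SE, adjusted p = 0.0211). Its second probe set had the same sign, with 1366 and 1263 against 1430 and 1636. With control replicate 2 left out the call was lost (0.31, adjusted p = 0.0916), as it was with knockdown replicate 1 left out (0.23, adjusted p = 0.141), and adjusted p ranged from 0.00480 to 0.181 over 11 alternatives. The other 4 tested light chains also had differences above 0 but did not pass. For Slc7a5 (LAT1, the main importer of large neutral amino acids) the difference was 0.11, with a 95% interval of -0.06 to 0.29. For Slc7a7, a close relative of Slc7a6, it was 0.28 (-0.04 to 0.59), and its second probe set was -0.17. It passed as higher without control replicate 1 (0.49, adjusted p = 0.0328, in a range of 0.0328 to 0.841). Slc7a9 and Slc7a10 were dim, at 0.38 and 0.46. Slc7a11, the cystine importer xCT, stayed under the filter with 11.8 and 37.6 in controls and 44.6 and 28.8 in knockdown, groups that overlap. Slc7a8 (LAT2) was under it with 7.72 and 19.1 against 45.3 and 32.4.

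Of the cationic amino acid transporters, Slc7a1 (CAT1, which imports arginine and lysine) was lower. Its signals were 2671 and 2740 in controls and 2321 and 2133 in knockdown, a 1.22-fold fall (log2 -0.28 ± 0.070 SE, adjusted p = 0.0158). The groups were apart at this probe set but its further 2 probe sets gave differences of only -0.06 each, and averaging all 3 removed the call (-0.13, adjusted p = 0.383). It also ended without control replicate 2 (-0.26, adjusted p = 0.0758) or knockdown replicate 2 (-0.22, adjusted p = 0.0803), within a range of 0.0112 to 0.383. Slc7a3 (CAT3) had 3484 and 2810 in controls and 3030 and 3342 in knockdown. The groups overlap, and the difference was 0.024 with a 95% interval of -0.18 to 0.23. Slc7a4, a relative of these carriers, had groups that were apart at its brightest probe set (255 and 250 against 202 and 192) but did not pass (log2 -0.36 ± 0.17 SE, adjusted p = 0.175). At the next probe set, an s_at type that may match several transcripts, it pointed the other way, from 76.3 and 89.6 to 128 and 142. Slc7a2 was dim, at -0.53 (adjusted p = 0.363).

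Glutamate transporters and their relatives were split. Slc1a3 (GLAST, a glutamate importer known from glia) was lower, with signals of 333 and 259 in controls and 181 and 154 in knockdown. Both controls were above both knockdown arrays, a 1.76-fold fall (log2 -0.82 ± 0.20 SE, adjusted p = 0.0134). Its further 4 probe sets above the filter gave 0.01, -0.32, -1.18 and -0.93, of which that at -1.18 passed among 27022 probe sets (adjusted p = 0.0272). Averaging its probe sets removed the call (-0.56, adjusted p = 0.338), as did leaving out control replicate 1 (-0.64, adjusted p = 0.120), within a range of 0.00988 to 0.338. Slc1a1 (EAAC1, the glutamate and cysteine importer) was dim and did not pass, with 33.4 and 45.6 in controls and 99.5 and 69.5 in knockdown (log2 1.09 ± 0.43 SE, adjusted p = 0.0976). Its further 2 probe sets pointed the same way, at 0.61 and 0.44. Slc1a7 was at 0.52 (adjusted p = 0.386), and Slc1a2 and Slc1a6 were under the filter.

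The neutral exchanger gene Slc1a4 (ASCT1, for alanine, serine, cysteine and threonine), whose promoter stretch is shown above, was higher. Its signals were 230 and 265 in controls and 353 and 342 in knockdown, a 1.41-fold rise (log2 0.50 ± 0.16 SE, adjusted p = 0.0454). The 3 probe sets shared the sign, at 0.50, 0.35 and 0.23. In the fit of single probe sets the brightest did not pass (adjusted p = 0.0605). The call by gene was lost in 8 of 11 alternatives (adjusted p from 0.0388 to 0.209), which include leaving out control replicate 1 (log2 0.39, adjusted p = 0.209), control replicate 2 (0.60, adjusted p = 0.0601), knockdown replicate 1 (0.47, adjusted p = 0.139) or knockdown replicate 2 (0.52, adjusted p = 0.103). It was lost as well with the replicate number as a block (adjusted p = 0.0624), without the filter (0.0752) and with averaged probe sets (log2 0.36, adjusted p = 0.144). Its sister Slc1a5 (ASCT2, a glutamine importer) went from 306 and 189 to 184 and 155 and did not pass (log2 -0.51 ± 0.24 SE, adjusted p = 0.166). Without control replicate 2 it passed as lower (-0.86, adjusted p = 0.0338, in a range of 0.0338 to 0.762).

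**Figure D2:**
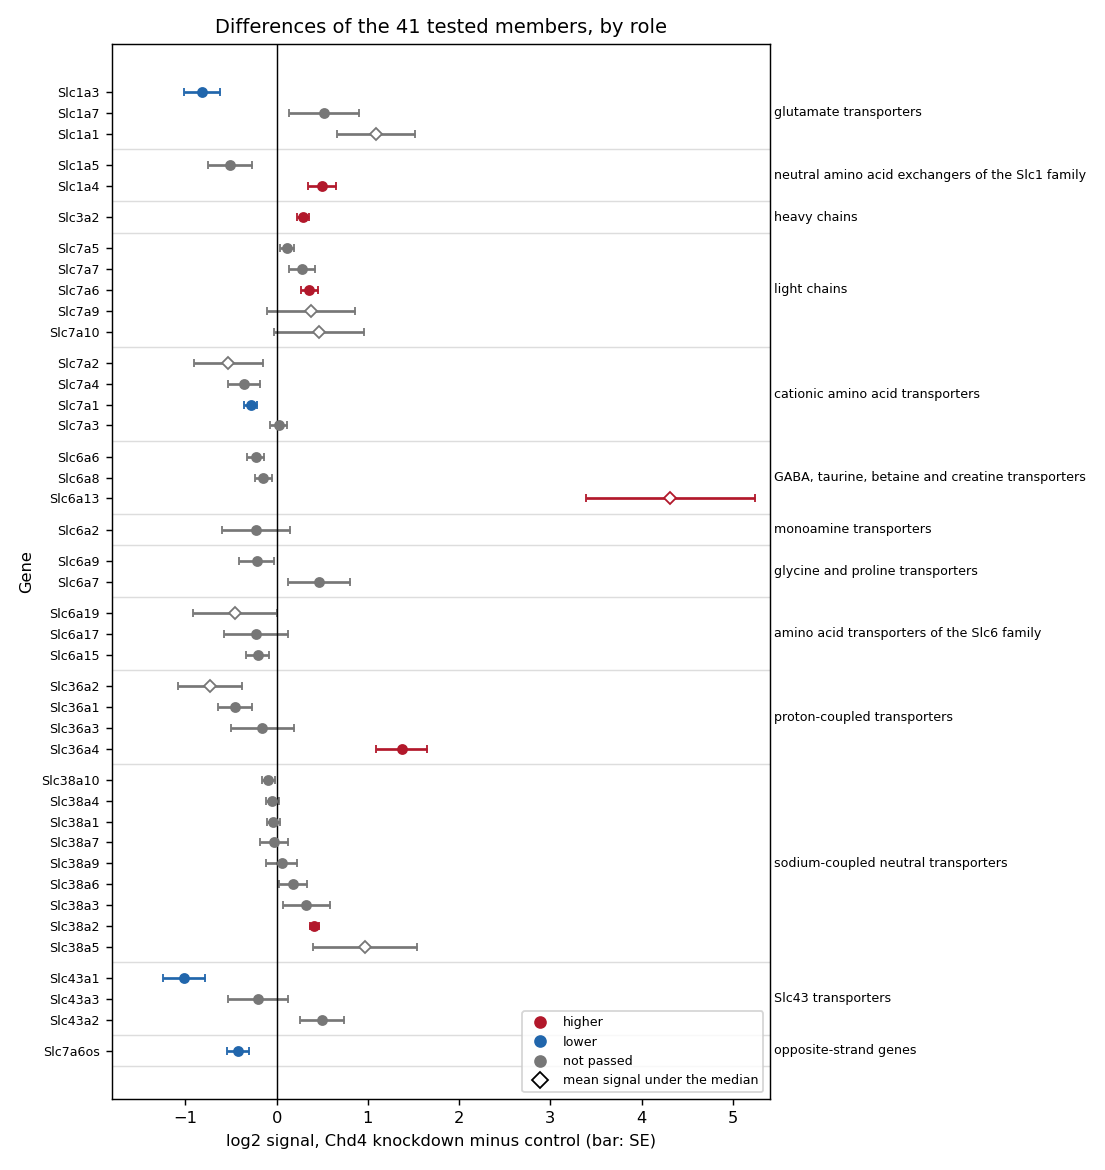
Difference in log2 signal, Chd4 knockdown minus control, with its SE, for the 41 tested members in order of role. Red marks a rise and blue a fall at an adjusted p under 0.05, grey did not pass, and open diamonds have a mean signal under the median. Slc6a13 is drawn at its fitted 4.31, which rests on controls near background, and the other 40 lie between -1.01 and 1.37.

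In the Slc6 family 1 of 9 tested genes passed. Slc6a13 (GAT2, a GABA and taurine transporter) was at 2.67 and 34.4 in controls and 162 and 224 in knockdown. The knockdown arrays were both above both controls, a rise of at least 2.65-fold (adjusted p = 0.00747, and 9.50e-06 to 0.161 over 9 alternatives). Its mean was just above the filter and its controls were below it, so it was tested only through its knockdown signals. Its fitted log2 difference of 4.31 ± 0.93 (SE) is set against controls near background and gives no size. It dropped out of the genes tested under quantile normalization and in the top 40% of probe sets. Its chromosomal neighbour Slc6a12 (BGT1, for betaine and GABA) was under the filter, with 4.43 and 6.53 in controls and 36.6 and 27.1 in knockdown. Tested without a filter, Slc6a12 did not pass (log2 2.55 ± 0.93 SE, adjusted p = 0.116).

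Neither Slc6a6 nor Slc6a8 passed by its brightest probe set, while 1 further probe set of each passed as lower. Slc6a6 (the main taurine transporter) had 1828 and 2268 in controls and 1742 and 1728 in knockdown (log2 -0.23 ± 0.096 SE, adjusted p = 0.116). It passed without control replicate 1 (-0.39, adjusted p = 0.0128), within a range of 0.0128 to 0.681. A further probe set, from 2066 and 1868 to 1606 and 1547, passed as lower among all probe sets (-0.32, adjusted p = 0.0230). For Slc6a8 (the creatine transporter) the brightest probe set gave 997 and 1058 against 890 and 968, which did not pass (-0.15 ± 0.093 SE, adjusted p = 0.305). Its second gave 856 and 849 against 545 and 557 and passed as lower (-0.63 ± 0.10 SE, adjusted p = 0.00233). Averaged over both, Slc6a8 passed (-0.39, adjusted p = 0.0256, in a range of 0.0256 to 0.662). Of 77 member probe sets above the filter, 5 were higher and 8 lower, against 14.2% of all 27022 probe sets that passed in either direction.

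The other 6 tested Slc6 genes did not pass. The glycine transporter gene Slc6a9 was at -0.22 (95% interval -0.64 to 0.21) and the branched-chain amino acid carrier gene Slc6a15 at -0.21 (-0.48 to 0.06). The proline carrier gene Slc6a7 was at 0.46, the noradrenaline transporter gene Slc6a2 at -0.23, and Slc6a17 and Slc6a19 at -0.22 and -0.46. The dopamine and serotonin transporter genes Slc6a3 and Slc6a4 were under the filter. So were Slc6a5, Slc6a11, Slc6a14, Slc6a16, Slc6a18, Slc6a20a, Slc6a20b and Slc6a21.

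Of the Slc36 carriers, Slc36a4 (PAT4, for proline and tryptophan) was higher. Its signals were 61.2 and 75.8 in controls and 197 and 157 in knockdown, a rise of at least 2.39-fold (log2 1.37 ± 0.28 SE, adjusted p = 0.00598). Both knockdown arrays were above both controls, and it kept an adjusted p of 0.00555 to 0.0536 over 10 alternatives, the highest without the intensity trend. The 3 other genes of the family, which lie side by side on chromosome 11, had differences below 0 and did not pass. Slc36a1, which exports amino acids from lysosomes, went from 235 and 231 to 181 and 159 (-0.46 ± 0.19 SE, adjusted p = 0.115). Slc36a2 went from 88.2 and 96.6 to 56.1 and 55.4 (-0.73 ± 0.35 SE, adjusted p = 0.169). Slc36a3 was at -0.16 with groups that overlap.

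All 9 sodium-coupled Slc38 genes among the members were tested, and Slc38a2 was the one that passed. Slc38a2 (SNAT2, a glutamine and alanine importer known to be induced by amino acid shortage) had 5327 and 5511 in controls and 7292 and 7148 in knockdown. The groups were well apart, a 1.33-fold rise with the smallest p of any member (log2 0.41 ± 0.053 SE, adjusted p = 0.000342). Its second probe set gave 1033 and 964 against 1158 and 1243 (0.27, adjusted p = 0.0778 among probe sets). The third, at 105 and 68.9 against 60.7 and 71.7, pointed the other way. The call ended when the 3 were averaged (0.10, adjusted p = 0.564) and ranged from an adjusted p of 0.000205 to 0.564 over 11 alternatives. Its neighbours on chromosome 15 had differences near 0. For Slc38a1 (SNAT1) the signals were 2021 and 1915 against 1899 and 1934, a difference of -0.038 (95% interval -0.20 to 0.12). For Slc38a4 (SNAT4) they were 4257 and 4338 against 3904 and 4427, a difference of -0.048 (-0.20 to 0.10). Whether Slc38a2 differs from its neighbours was not tested.

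Slc38a9, the lysosomal arginine sensor that signals to mTORC1, was at 0.058 (95% interval -0.31 to 0.43) over signals of 275 and 288 against 329 and 261. Slc38a10 was at -0.091 (-0.25 to 0.07) at its brightest probe set, and 1 of its further probe sets passed as lower (-0.35, adjusted p = 0.0344). Slc38a7, Slc38a6, Slc38a3 and the dim Slc38a5 were at -0.026, 0.18, 0.32 and 0.97 and did not pass. The median size of a difference was 0.091 among the tested Slc38 genes.

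Of the Slc43 genes, Slc43a1 (LAT3, a facilitator of branched-chain amino acid transport) was lower. Its signals were 224 and 195 in controls and 111 and 96.3 in knockdown, a 2.02-fold fall (log2 -1.01 ± 0.23 SE, adjusted p = 0.00983). Both controls were above both knockdown arrays at its 1 probe set. The call ended without control replicate 1 (-0.91, adjusted p = 0.0772), within a range of 0.00620 to 0.0772 over 11 alternatives. Its relative Slc43a2 (LAT4) had groups that were apart the other way, 112 and 107 against 151 and 158, and did not pass (0.50 ± 0.24 SE, adjusted p = 0.170). Its second probe set was at -0.57. Slc43a3 was at -0.20 (adjusted p = 0.719).

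Slc7a6os, which lies next to Slc7a6 on the opposite strand, was lower at its brightest probe set, with 548 and 597 in controls and 449 and 405 in knockdown (log2 -0.42 ± 0.12 SE, 1.34-fold, adjusted p = 0.0322). Its second probe set pointed the other way, from 229 and 250 to 314 and 278. With both averaged the difference was -0.058 (adjusted p = 0.816). The call also ended without control replicate 1 (-0.49, adjusted p = 0.0590), control replicate 2 (-0.36, adjusted p = 0.173) or knockdown replicate 2 (-0.35, adjusted p = 0.124) and with the replicate block (adjusted p = 0.0509), within a range of 0.0272 to 0.816. Slc36a1os and Slc6a19os were under the filter.

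**Figure D3:**
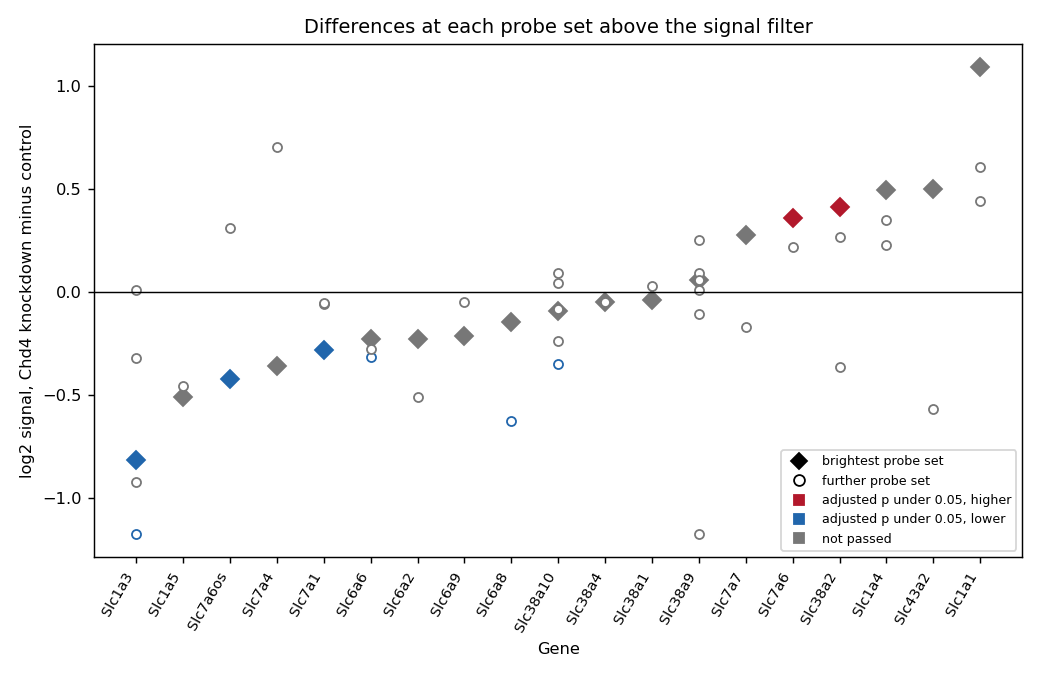
Difference in log2 signal, Chd4 knockdown minus control, at every probe set above the filter, for the 19 tested members with more than 1. Diamonds mark the brightest probe set of a gene, and red and blue mark an adjusted p under 0.05 over all 27022 probe sets. Of the members that passed, Slc38a2, Slc1a3 and Slc7a6os have a further probe set on the other side of 0. So do Slc7a4, Slc7a7, Slc43a2, Slc38a1, Slc38a9 and Slc38a10, which did not pass. The further probe set of Slc6a8 lies lower than its brightest.

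Further probe sets above the filter did not all share the sign of the brightest. Of the 6 members that passed and had any, 3 had every further probe set of the same sign, as did 7 of 13 that did not pass. Over all genes that passed, 1005 of 1404 did (71.6%). Counted by probe set, 9 of 12 further probe sets of members that passed shared the sign. These probe sets read the same 4 arrays, so they check the probe set and not the cells.

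The 22 members under the filter had signals of 1.29 to 56.2 on single arrays, with a median of 14.3. Beside those named above they include Slc7a12, Slc7a13, Slc7a14 and Slc7a15. When every gene was tested without a filter, 0 of the 22 passed in limma, against 11.7% of 18193 genes, and 1 (Slc6a12) had an unadjusted p under 0.05. Those 18193 genes include the brighter ones, and the share among genes under the filter alone was not counted. MAS5 signals this low are noisy, so these values do not show that a gene was silent or unchanged.

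Genes around amino acid supply were read from 4 lists, to be set beside the 11.7% (higher) and 8.81% (lower) of all tested genes. Those shares include dimmer genes, while all 25 amino acid response and all 30 mTORC1 sensing genes were above the median signal. In the top 40% of probe sets, 1405 of 9572 genes were higher and 1167 lower. Without the intensity trend most calls in the lists ended. That left 1 amino acid response gene, 1 mTORC1 sensing gene, 1 other carrier and 2 enzymes higher, and 1 enzyme lower. Of 25 tested genes of the amino acid response, 7 were higher and 4 lower (median log2 difference 0.046). Ddit3 (CHOP) rose 1.90-fold, from 458 ± 0.405 to 878 ± 140 (SD, 2 arrays a group; limma adjusted p = 0.000470), and Cebpb, another bZIP factor, rose 1.86-fold. The serine synthesis gene Phgdh fell 1.38-fold, from 9065 ± 63.1 to 6559 ± 209, and the alanine transaminase gene Gpt2 fell 1.51-fold. The call of Ddit3 ended with averaged probe sets (log2 0.84, adjusted p = 0.0810, in a range of 0.000133 to 0.0810). Without control replicate 2, 4 genes of the list were higher. Of 30 tested genes of amino acid sensing by mTORC1, 7 were higher and 3 lower (median 0.00053). Castor1, an arginine sensor, rose 1.90-fold, the Rag GTPase gene Rragd 2.01-fold and the Sestrin gene Sesn3 1.94-fold, while the lysosomal scaffold gene Lamtor3 fell 1.34-fold. The call of Rragd ended with averaged probe sets (0.89, adjusted p = 0.0701, in a range of 7.07e-05 to 0.0701), and 1 gene was lower without control replicate 2 or without knockdown replicate 1.

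Of 13 tested carriers of amino acids, peptides or transmitters from other families, 3 were higher and 1 lower (median 0.14). The peptide transporter gene Slc15a2 rose 3.80-fold, from 399 ± 2.59 to 1529 ± 280 (limma adjusted p = 2.95e-06), and its relative Slc15a1 fell at least 2.73-fold. The mitochondrial aspartate and glutamate carrier genes Slc25a12 and Slc25a13 rose 1.38-fold and 1.20-fold. Without control replicate 2 the calls of Slc15a1, Slc25a12 and Slc25a13 ended (adjusted p = 0.0776, 0.104 and 0.0605), which left 1 higher and 0 lower (1 lower at an unadjusted p under 0.05). Those of Slc25a12 and Slc25a13 ended as well without knockdown replicate 2 (adjusted p = 0.0516 and 0.0551), and that of Slc25a12 with averaged probe sets (log2 0.63, adjusted p = 0.144). Over all alternatives adjusted p ranged from 0.00145 to 0.122 for Slc15a1, from 0.00959 to 0.144 for Slc25a12 and from 0.00896 to 0.144 for Slc25a13. The vesicular glutamate and GABA carrier genes Slc17a6, Slc17a7 and Slc32a1 were under the filter. Of 21 tested enzymes that make or use the carried substrates, 4 were higher and 3 lower (median 0.023). The creatine kinase gene Ckb rose 1.62-fold, the glycine decarboxylase gene Gldc 1.49-fold and the aromatic amino acid decarboxylase gene Ddc 1.49-fold, while the branched-chain transaminase gene Bcat2 fell 1.73-fold. The call of Ddc ended with averaged probe sets (0.37, adjusted p = 0.555, in a range of 0.000238 to 0.555).

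**Figure D4:**
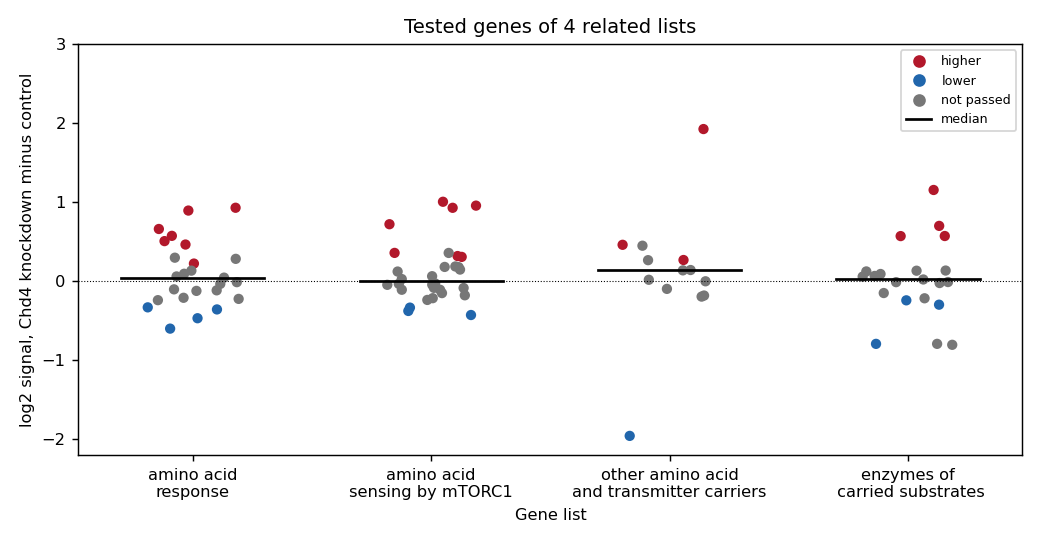
Difference in log2 signal, Chd4 knockdown minus control, of each tested gene of 4 related lists, in red and blue where it was higher or lower at an adjusted p under 0.05 and in grey otherwise, with the median as a bar. The medians lie between 0.00053 and 0.14, and each list holds genes on both sides of 0.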

How the data were processed

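RNA of 2 control and 2 Chd4 knockdown samples was hybridised to Affymetrix arrays. The deposited values are MAS5 signal intensities, linear and scaled by the authors, per the submitters' processing notes; the MAS5 version and the scaling target are not given in the sources used here. Each array holds 45101 probe sets. The 64 control probe sets were left out, as were 932 probe sets that the platform annotation pairs with several symbols and 9160 with none. Log2 signals were fitted with limma 3.58.1 in R 4.3.3 (lmFit, then eBayes with an intensity trend), without a block or further normalization. Genes were represented by their brightest probe set, kept if it was in the top 60% by mean signal, and p-values were adjusted (Benjamini-Hochberg) over 12615 genes at 0.05. The text names Chd4, every member, and up to 4 genes of each pathway list with the smallest p among those that passed. Marker genes and the vesicular carriers under the filter were named outside this rule, after their values were seen. The SE is the moderated one, and intervals are 95%. Simulated data with known changes were used to test these scripts. With 2 arrays in each group, their number limits the precision. The members and lists were chosen with earlier results of these data known. Alternatives were a pseudocount, quantile normalization, no filter or the top 40%, no intensity trend, averaged probe sets, the replicate number as a block and leaving out each array. Averages were over all probe sets of a gene, those under the filter included. Promoter windows came from RefSeq. One probe set shared by Slc1a2 and another symbol was not used here.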

Additional observations from a re-analysis of the deposited data

How the results depend on the processing

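Without the intensity trend, members that passed went from 6 higher and 4 lower to 0 and 1 (limma; 8 and 8 at an unadjusted p under 0.05). In the same setting the amino acid response list had 1 higher and 0 lower (5 lower unadjusted), mTORC1 sensing 1 and 0 (3 lower unadjusted), other carriers 1 and 0 (1 lower unadjusted) and the substrate enzymes 2 and 1. With averaged probe sets 2 members were lower, 4 amino acid response genes were higher, and 1 mTORC1 sensing gene and 1 substrate enzyme were lower. In the top 40% of probe sets 0 other carriers were lower (1 unadjusted). Leaving out 1 array gave 3 to 6 members higher and 2 to 4 lower. It gave 4 to 6 amino acid response genes higher, 1 to 3 mTORC1 sensing genes lower, and 1 to 4 other carriers higher with 0 to 1 lower. The lone array left in a group is assumed to vary like the others.

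The 10 members that passed kept their direction in all 107 alternative fits and lost the call in 32. Of the members that did not pass, 15 turned sign somewhere, and the cause was not tested. With averaged probe sets the log2 difference was -0.54 for Slc38a3, -0.12 for Slc38a9, 0.72 for Slc6a17, 0.63 for Slc6a19, 0.022 for Slc7a2 and 0.29 for Slc7a4. Apart from Slc38a9, each of these genes has probe sets under the filter, which the averages took in. Over the fits without 1 array it ran from -0.55 to 0.23 for Slc36a3, -0.077 to 0.00072 for Slc38a1, -0.14 to 0.043 for Slc38a4, -0.16 to 0.10 for Slc38a7, -0.11 to 0.23 for Slc38a9 and -0.54 to 0.095 for Slc6a17. It ran from -0.94 to 0.027 for Slc6a19, -0.75 to 0.29 for Slc6a2, -0.46 to 0.027 for Slc6a9, -0.13 to 0.18 for Slc7a3, -0.0069 to 0.23 for Slc7a5 and -0.088 to 0.85 for Slc7a9.

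Same-numbered arrays did not deviate together over the genes tested (correlation 0.018). The labels give only a replicate number, and this value cannot tell whether same-numbered samples were prepared together. With the replicate block 5 members were higher and 3 lower, and over all genes 1277 were higher and 983 lower against 1480 and 1112. Signals near background set the limit for the 22 members under the filter and for Slc6a13.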
